A study of Mus musculus with 6 samples.

Results

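Expression of 10 receptor genes of blood cells and mast cells was examined in cultured mouse female germline stem cells (FGSCs), with and without knockdown of CTCF. They were Kit, Fcer1a, Ms4a2, Fcer1g, Il3ra, Csf2rb, Csf2rb2, Il1rl1, Csf1r and Mrgpra9, and they were named by symbol among the 24732 genes of the expression table. They had been picked with their difference between the groups in view, so that difference is given as a description, without a test.

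RNA-seq was made from 3 control samples and 3 samples that carried a short hairpin RNA against CTCF (shCTCF). CTCF binds DNA and sets the borders of chromatin loops and domains. Both groups were FGSCs labelled as strain C57BL/6 at more than 20 passages, grown on inactivated STO fibroblast feeder cells. According to the study's methods the line came from ovaries of neonatal Ddx4-Cre; mT/mG mice, in which Cre is driven by the promoter of the germ cell gene Ddx4, and the hairpin came with a lentivirus and puromycin selection. The control construct and the treatment of the control cells were not given in the sources used here. Nothing in them says that the samples of a group came from separate cultures, so p-values measure the spread between these samples, which may be technical.

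Kit is the receptor tyrosine kinase for stem cell factor, the product of Kitl, and it is known both from germ cells and from mast cells and blood progenitors. The high-affinity receptor for IgE is built from an alpha chain (Fcer1a) that holds the antibody, a beta chain (Ms4a2) that amplifies the signal and a gamma chain (Fcer1g) that carries it, and the gamma chain also serves other Fc receptors. The receptors for IL-3, GM-CSF and IL-5 each pair a private alpha chain with a shared beta chain (Csf2rb), and the mouse has an additional, IL-3-specific beta chain (Csf2rb2). Il1rl1 encodes ST2, the receptor for IL-33, Csf1r the receptor of the macrophage growth factor CSF1, and Mrgpra9 a G protein-coupled receptor of the MRGPR family.

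Total counts lay between 1686052 and 7044272 fragments per sample, and control 2 was the smallest library. Expression is given as FPKM, fragments scaled to transcript length and to the mapped fragments of the library, which allows levels to be compared between genes. Ctcf was at 58.2, 56.1 and 53.5 FPKM in the controls and at 0.740, 0.550 and 0.629 FPKM in the shCTCF samples. It had 0 counts in all 6 samples, so this check of the knockdown rests on FPKM only. The median gene moved by -0.17 on the log2(FPKM + 1) scale, so a member at the same FPKM in both groups was slightly above the median gene after knockdown. The groups were fully apart for a large part of the transcriptome. Of the 9976 genes that averaged 1 FPKM or more, 30.8% had every shCTCF sample above every control, and 45.8% had every shCTCF sample below every control.

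The label of the cells was set against marker genes. Of 22 listed genes of the female germ line, 18 stayed under 1 FPKM in every sample, and Dppa3, Gfra1, Nanos2, Nanos3, Sall4, Lin28a and Stra8 were at 0 in all 6. Ddx4 was at 0 in the controls and at 0.182, 0.160 and 0.0321 FPKM in the shCTCF samples. The 4 genes of the list above 1 FPKM in any sample were Etv5 (17.3 and 14.2 FPKM in the group means), Tex14 (5.94 and 6.07), Zbtb16 (1.56 and 0.288) and Ifitm3. Ifitm3 encodes an interferon-induced membrane protein also known as a germline marker, and rose from 0.737 ± 0.646 to 10.8 ± 0.327 FPKM on limma and on edgeR. Of 16 leukocyte genes, 15 passed the filter of 1 FPKM, and the list summed to between 2137 and 2216 FPKM in the controls and between 2069 and 2189 in shCTCF. Its genes moved both ways within that sum: 4 rose, 6 fell and 5 did not pass (limma), and on counts 3 of 11 rose and 1 fell (edgeR). The mast cell and basophil list of 23 genes summed to between 998 and 1238 FPKM in the controls and between 2251 and 2448 in shCTCF, with Tpsg1 and Prss34 at 0 throughout. The higher sum was that of Cd63 and Srgn, which many other cells express too, at 330.5 and 174 FPKM in the mean of the controls and 1184 and 769.6 in shCTCF. Other genes of the list fell, among them Cpa3, a mast cell protease, from 281 ± 56.7 to 88.0 ± 13.1 FPKM, Ctsg, another protease, from 151 ± 19.4 to 2.22 ± 0.278 FPKM, and Slc18a2, the monoamine transporter of granules, from 30.2 ± 7.37 to 4.62 ± 0.436 FPKM. Others rose in the group means: Hdc from 4.25 to 87.2 FPKM, Adora3 from 6.25 to 47.3 FPKM and Gzmb from 1.05 to 14.6 FPKM. In all, 8 of the 16 genes tested rose and 5 fell (limma), and on counts 7 of 10 rose and 3 fell (edgeR). Tpsab1, among the 8 that rose, passed the FPKM filter through the shCTCF samples alone. Of all genes tested, 28.8% rose and 44.2% fell on FPKM, and 34.8% rose and 34.3% fell on counts. The marker sums above go against the label of germline cells, and no other name is given to the cells here. The study itself reported RT-PCR signals of Oct4 (Pou5f1), Fragilis (Ifitm3), Mvh (Ddx4), Stella (Dppa3), Gfra1 and Dazl in cultured FGSCs, and staining for MVH.

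Markers of other cells moved with the groups in part. The 10 neutrophil genes summed to at most 0.579 FPKM and the 11 lymphoid genes to at most 0.577 FPKM in any sample. The 16 macrophage genes summed to 103 to 113 FPKM in the controls and to 206 to 242 FPKM in shCTCF, with C1qa and C1qb at 0 in all samples and Adgre1 and Cd68 as the highest genes. On FPKM and on counts alike, 4 of the 5 tested rose and 0 fell. Among all genes tested, 28.8% rose and 44.2% fell on FPKM, and 34.8% and 34.3% on counts. Lyz2 went from 0.0274 to 3.29 FPKM and Mpeg1 from 0.0683 to 2.49 FPKM in the group means. Both passed the FPKM filter through the shCTCF samples alone. The 20 genes listed for fibroblasts, the feeder type, summed to 1110 to 1153 FPKM and to 6504 to 6690 FPKM, but Vim alone made up 991 to 1046 and 6352 to 6527 of this, and Col3a1 and Lum were at 0. On FPKM 5 of the 8 genes tested of this list rose and 3 fell, where 28.8% and 44.2% of all genes did. On counts 7 of 8 rose and 0 fell, where 34.8% and 34.3% of all genes did. Col6a1, a collagen VI chain, rose from 0.144 ± 0.0488 to 15.3 ± 0.380 FPKM and Thy1 from 0.382 ± 0.219 to 2.02 ± 0.123 FPKM, while Fn1, the fibronectin gene, fell from 2.22 ± 0.111 to 0.0266 ± 0.00288 FPKM and Dcn from 2.71 ± 0.107 FPKM to 0. The part of other cells in the differences below was not tested. In bulk RNA, more cells of a type and more RNA per cell cannot be told apart.

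**Figure D1:**
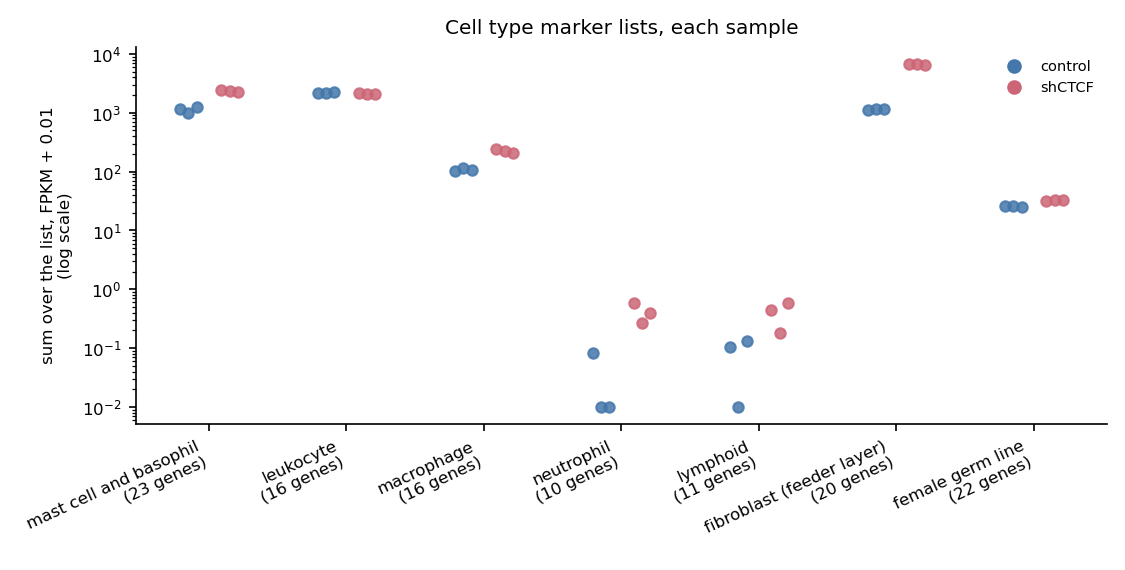
Summed FPKM (plus 0.01, log scale) of 7 marker lists in each of the 3 control (blue) and 3 shCTCF (red) samples, with the number of genes of each list in brackets. Leukocyte genes summed to 2069 FPKM or more in all 6 samples, while the neutrophil and lymphoid lists stayed under 1 FPKM.

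Sequences are shown where the annotation or the data turn on them. The annotation holds a pair of Kit transcripts that differ by 12 bases at the end of exon 9, a known alternative splice in the part of the receptor just outside the membrane. The last 60 bases of the longer exon (mm9, plus strand, chr5:76035124-76035183) are shown with the 12 alternative bases in capitals.

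Kit exon 9: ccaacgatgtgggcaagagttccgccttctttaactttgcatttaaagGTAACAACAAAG

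For Il1rl1 the annotation holds a distal and a proximal first exon, and the data below split between them. Both start regions are shown, from 250 bases before to 50 bases after the start site, as RefSeq gives them for GRCm38.p6. They lie at chr1:40429320-40429619 (distal) and chr1:40439379-40439678 (proximal) on the plus strand, and in mm9 the same bases were found once each, at chr1:40486165-40486464 and chr1:40496224-40496523. In all start regions shown, capitals mark the motifs named after the sequences, on either strand; in Il1rl1 this is AGATAA or its reverse complement, the letters bound by GATA factors.

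Il1rl1 distal: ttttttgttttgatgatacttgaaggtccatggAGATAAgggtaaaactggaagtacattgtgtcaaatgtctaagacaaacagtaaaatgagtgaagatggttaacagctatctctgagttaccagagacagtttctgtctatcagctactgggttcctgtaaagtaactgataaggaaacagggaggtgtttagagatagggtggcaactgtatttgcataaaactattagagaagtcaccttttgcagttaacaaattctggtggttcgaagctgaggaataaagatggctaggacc
Il1rl1 proximal: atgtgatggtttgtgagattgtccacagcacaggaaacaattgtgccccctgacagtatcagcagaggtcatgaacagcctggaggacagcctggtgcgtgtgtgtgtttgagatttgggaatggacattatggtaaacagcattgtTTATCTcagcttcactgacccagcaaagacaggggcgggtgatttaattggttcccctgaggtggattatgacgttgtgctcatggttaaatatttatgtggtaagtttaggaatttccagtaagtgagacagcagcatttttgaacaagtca

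The start regions of the gamma and the beta chain of the IgE receptor are shown because the first gene was high and the second almost silent. They lie at chr1:171234300-171234599 (Fcer1g) and chr19:11623670-11623969 (Ms4a2) of GRCm38.p6, both on the minus strand, and are written 5′ to 3′ along the gene.

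Fcer1g: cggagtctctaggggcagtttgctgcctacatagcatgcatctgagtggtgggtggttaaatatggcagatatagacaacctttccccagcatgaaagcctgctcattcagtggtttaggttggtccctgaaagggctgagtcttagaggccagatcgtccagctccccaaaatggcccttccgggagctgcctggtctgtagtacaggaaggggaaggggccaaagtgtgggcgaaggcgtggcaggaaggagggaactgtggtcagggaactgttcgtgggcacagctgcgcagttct
Ms4a2: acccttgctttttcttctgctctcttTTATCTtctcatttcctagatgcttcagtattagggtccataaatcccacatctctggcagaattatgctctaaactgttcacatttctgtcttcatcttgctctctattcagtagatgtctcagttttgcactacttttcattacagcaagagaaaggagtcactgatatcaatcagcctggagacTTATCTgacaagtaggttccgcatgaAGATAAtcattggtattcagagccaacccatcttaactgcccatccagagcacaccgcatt

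Csf2rb2 and Mrgpra9 are shown as members that differed in opposite directions. Their start regions lie at chr15:78305672-78305971 and chr7:47252830-47253129 of GRCm38.p6, both on the minus strand.

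Csf2rb2: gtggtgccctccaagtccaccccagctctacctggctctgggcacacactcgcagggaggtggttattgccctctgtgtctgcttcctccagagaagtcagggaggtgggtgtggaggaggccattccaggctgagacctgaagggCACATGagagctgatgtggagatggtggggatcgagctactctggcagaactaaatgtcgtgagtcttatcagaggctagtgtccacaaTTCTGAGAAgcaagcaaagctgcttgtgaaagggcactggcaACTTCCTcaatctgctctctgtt
Mrgpra9: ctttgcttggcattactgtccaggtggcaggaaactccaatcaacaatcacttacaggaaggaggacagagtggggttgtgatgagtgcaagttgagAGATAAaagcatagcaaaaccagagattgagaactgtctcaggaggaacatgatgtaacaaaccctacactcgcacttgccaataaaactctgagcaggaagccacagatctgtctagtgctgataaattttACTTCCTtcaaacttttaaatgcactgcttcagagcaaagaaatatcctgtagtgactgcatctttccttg

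RefSeq start regions were found for 8 of the 10 members, and 9 were searched after the nearly identical second one of Kit was left out. The letters searched on both strands were AGATAA for factors of the GATA family, AGGAAGT for ETS factors such as PU.1, CACGTG as an E-box of MITF, CATGTG as another such E-box, TTCNNNGAA for STAT5 and the core of the known CTCF motif. No occurrences of different motifs overlapped. AGATAA was found in 5 of the 9 member regions and in 11.2% of all 32544 mouse start regions. It occurred 3 times in Ms4a2, beginning 224, 37 and 11 bases before the start, and also in Fcer1a, Mrgpra9 and both regions of Il1rl1. AGGAAGT was found in 3 of the 9 (Csf2rb2, Il3ra and Mrgpra9) and in 9.27% of all. CATGTG was found in 2 (Csf2rb2 and Fcer1a) and in 14.2% of all, and TTCNNNGAA in 1 (Csf2rb2, 15 bases before the start) and in 8.33% of all. CACGTG, present in 7.17% of all regions, and the CTCF core, present in 0.562%, were in 0 of the 9. The members that were high and those that were silent could not be sorted by these letters: Fcer1g and Kit held none of them, and Ms4a2, which was near 0, and Csf2rb2, which was high, held 3 occurrences each. A match describes letters and not a bound site.

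Of the members, 7 averaged 1 FPKM or more, and 3 (Fcer1a, Ms4a2 and Csf1r) did not. Of all 10, every shCTCF sample lay above every control for 6 and below every control for 2, and the groups overlapped for 2, beside the 30.8% above and 45.8% below among all genes past the filter. Ms4a2 is among the 6 and Csf1r among the 2 at levels near 0. Among the 7 past the filter, 5 were higher, 1 was lower and 1 overlapped. Mrgpra9 passed the filter through its control samples alone.

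**Figure D2:**
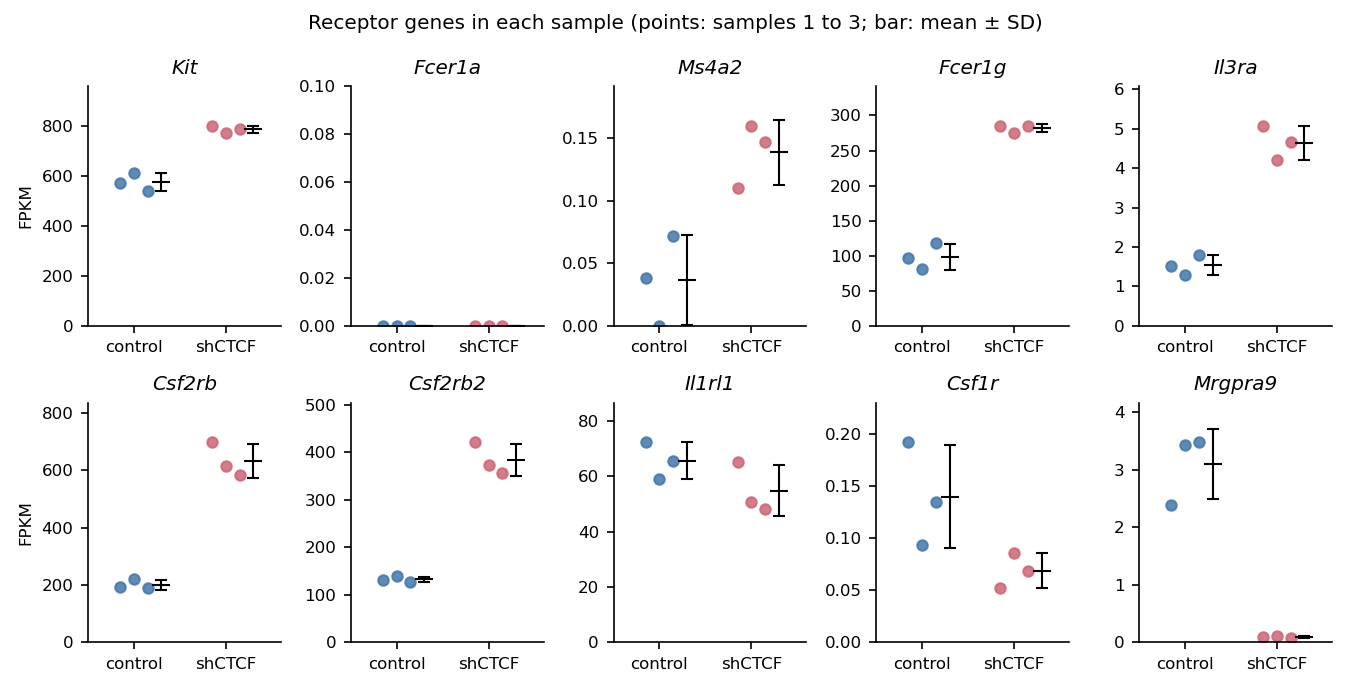
FPKM (linear axes that start at 0) of the 10 receptor genes in the 3 control and 3 shCTCF samples, with the mean ± SD of each group beside the points. Kit, Fcer1g, Il3ra, Csf2rb and Csf2rb2 sat higher in all shCTCF samples, Mrgpra9 sat lower, Il1rl1 overlapped, and Fcer1a was at 0 throughout.

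Kit (mm9, chromosome 5, plus strand, 75971012 to 76052746) was the most abundant member in every sample. It measured 571, 612 and 541 FPKM in the controls and 799.8, 771 and 788 FPKM in the shCTCF samples. The groups did not overlap, and the means were 575 ± 35.8 and 787 ± 14.4 FPKM (SD, n = 3 each), a ratio of 1.37. In the controls Kit stood at the 99.6th percentile of all genes. It made up 51.8% to 54.8% of the summed FPKM of the 10 members in the controls and 35.2% to 38.2% in shCTCF, where the ratios of Fcer1g and the beta chains, given below, were larger than that of Kit. Both groups used the exon forms shown above alike. The form with the 12 extra bases took 31.3%, 33.4% and 27.5% of the Kit signal in the controls and 26.1%, 28.0% and 30.8% in shCTCF, and the groups overlapped.

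The count table gives no check of Kit. Its transcripts share all but 16 bases, and fragments that overlap more than 1 transcript were not counted, so that Kit had 0 to 3 counts per sample. The ligand gene Kitl was at 0.0692, 0 and 0.0323 FPKM in the controls and at 0.0188, 0 and 0 FPKM in shCTCF.

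The genes whose pattern over the 6 samples was most like that of Kit were Slc1a5, a glutamine transporter, Foxj2, a transcription factor, Arrdc1, an arrestin-domain protein, Phc2, a Polycomb protein, and Ppp3cc, a calcineurin subunit. Likeness was the root mean square distance between log2(FPKM + 1) values centred on each gene's mean, and it was 0.024, 0.027, 0.032, 0.033 and 0.038 for these genes, out of 9975 compared. Slc1a5 lay between 55.8 and 61.2 FPKM in the controls and between 77.8 and 79.0 FPKM in shCTCF. The other members were far from Kit by this measure, from 0.38 for Il3ra, at rank 4218, to 1.18 for Mrgpra9, at rank 9541.

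Of the IgE receptor, the gamma chain was expressed without the other chains. Fcer1g (chromosome 1, minus strand) measured 97.3, 80.7 and 118 FPKM in the controls and 285, 275 and 285 FPKM in shCTCF. The groups did not overlap, and the means were 98.6 ± 18.5 and 282 ± 5.64 FPKM (SD, n = 3 each), a ratio of 2.86. Fcer1g has a single annotated transcript, and its counts gave the same order, with 167, 144 and 196 CPM (counts relative to the TMM-adjusted library size) in the controls and 545, 507 and 509.9 CPM in shCTCF, a ratio of 3.08.

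Fcer1a, the chain that binds IgE, was listed at 0 FPKM in all 6 samples and had 0 counts in all 6, over an exonic length of 1026 bases that no other transcript shares. A count of 0 allows up to 3 counts, which is between 0.426 and 1.78 CPM depending on the sample and covers counting error only. Ms4a2, the beta chain, was at 0.0383, 0 and 0.0716 FPKM in the controls and at 0.110, 0.160 and 0.147 FPKM in shCTCF. Its 0 counts in every sample add little, as its 4 transcripts share all but 111 and 57 bases that belong to single ones, and shared fragments were not counted. Its groups did not overlap, but all values were far below 1 FPKM. An exact 0 in the FPKM table was not by itself proof of silence, as 23 symbols at 0 FPKM in all samples had a mean of at least 10 CPM in the count table. None of 12 genes used by most cells was at 0. The data therefore go against the name of an IgE receptor for this set: the chain shared with other Fc receptors was present, and the 2 chains particular to the IgE receptor were at or near 0.

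Other Fc receptors that use the gamma chain were present. Fcgr3, a low-affinity IgG receptor that needs it, rose from 105 ± 5.09 to 167 ± 17.8 FPKM (log2 fold change 0.66, SE 0.09, adjusted p = 2.4e-04, limma on log2(FPKM + 1)). Fcgr3 had too few counts to be tested with edgeR. Of the 26 listed Fc receptor and MS4A genes, 6 could be tested, 1 rose, 0 fell and 5 did not pass, where 28.8% of all genes tested rose and 44.2% fell. Fcgr1, the high-affinity IgG receptor, lay between 4.70 and 6.14 FPKM and between 5.07 and 5.55 FPKM, and Fcgr2b, the inhibitory IgG receptor, between 137 and 151 and between 129 and 137 FPKM. On counts edgeR called Fcgr2b lower (log2 fold change -1.21, adjusted p = 0.00657), so that 1 of 5 genes tested there rose and 1 fell. Of the list, 9 genes were at 0 in every sample, among them Ms4a1 and Ms4a7.

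The proteins that carry the signal of the gamma chain moved both ways. Syk, the kinase that docks on it, rose from 13.9 ± 1.83 to 25.7 ± 0.527 FPKM (log2 fold change 0.85, adjusted p = 1.1e-04, limma), while on the few counts assigned to it edgeR's quasi-likelihood test gave an adjusted p of 0.0744. Lyn, the kinase that starts the signal, fell from 58.8 ± 1.75 to 44.3 ± 2.11 FPKM (log2 fold change -0.40, adjusted p = 8.1e-04, limma). Lyn had too few counts to be tested with edgeR. Lat, the adaptor downstream of Syk, measured 134 ± 18.4 and 127 ± 6.43 FPKM and did not pass either test. Of 30 genes tested of the IgE receptor signalling list, 9 rose, 8 fell and 13 did not pass, with a median log2 fold change of 0.02. Of all genes tested, 28.8% rose and 44.2% fell. With all samples scaled to the same median, 12 genes of the list rose and 7 fell, where 3482 of all 9976 genes tested rose and 3606 fell.

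The largest changes of that list were in 4 genes. Vav3, a signalling protein downstream of immune receptors, rose from 4.56 ± 1.12 to 12.3 ± 0.871 FPKM, and Cd200r1, an inhibitory receptor, from 34.8 ± 4.2 to 74.2 ± 2.42 FPKM. Plcg2, a phospholipase of the calcium signal, fell from 54.1 ± 6.02 to 25.8 ± 0.645 FPKM, and the protein kinase Prkca from 17.4 ± 0.445 to 8.55 ± 0.713 FPKM. All of these changes passed on both tables in the same direction. On counts, where edgeR called 34.8% of all genes higher and 34.3% lower, 10 of 23 tested genes of the list rose and 4 fell.

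The beta chains of the IL-3, GM-CSF and IL-5 receptors were the members with the largest difference in FPKM. Csf2rb (chromosome 15, plus strand, 78156230 to 78181431) measured 192, 221 and 188 FPKM in the controls and 697, 614 and 583 FPKM in shCTCF. The means were 200.2 ± 18.1 and 631 ± 58.9 FPKM (SD, n = 3 each) and the ratio was 3.15, with no overlap of the groups. Csf2rb2 (chromosome 15, minus strand, 78112938 to 78136151) measured 131, 139 and 128 FPKM in the controls and 420.5, 373 and 356 FPKM in shCTCF, means of 133 ± 5.68 and 383 ± 33.4 FPKM and a ratio of 2.89. The genes stand head to head, with 20078 bases between their start sites. Csf2rb took 59.5% to 61.4% of their summed FPKM in the controls and 62.1% to 62.4% in shCTCF, ranges that did not overlap but lay within 3 percentage points.

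These paralogs are alike in sequence, which bears on how reads are split between them. Over 4518 aligned bases of the mm9 transcripts 93.7% were identical. Of all 150-base windows of Csf2rb, 3.6% were found unchanged in Csf2rb2, and of 50-base windows 18.9%. Reads of the remaining windows differ at 1 base or more, and how the aligner placed near-identical reads was not given in the sources used here.

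The private alpha chains were much lower than the beta chains. Il3ra (chromosome 14, plus strand) measured 1.53, 1.30 and 1.81 FPKM in the controls and 5.07, 4.20 and 4.66 FPKM in shCTCF. The groups did not overlap, and the ratio of the means (1.55 ± 0.256 and 4.65 ± 0.436 FPKM) was 3.01. On counts Il3ra stood at 5.93, 7.25 and 6.53 CPM and at 22.8, 19.6 and 23.3 CPM, a ratio of 3.33. The summed beta chains exceeded Il3ra by 175 to 278 times in the controls and by 202 to 235 times in shCTCF, so this proportion overlapped between the groups. Csf2ra, the alpha chain for GM-CSF, rose from 1.80 ± 0.155 to 2.84 ± 0.280 FPKM (log2 fold change 0.45, SE 0.11, adjusted p = 0.00798, limma), and Il5ra stayed between 0 and 0.203 FPKM. The ligand gene Il3 was at 0 throughout, Il5 at 0 in the controls and at most 0.264 FPKM in shCTCF, and Csf2 at most 0.540 and 1.18 FPKM.

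**Figure D3:**
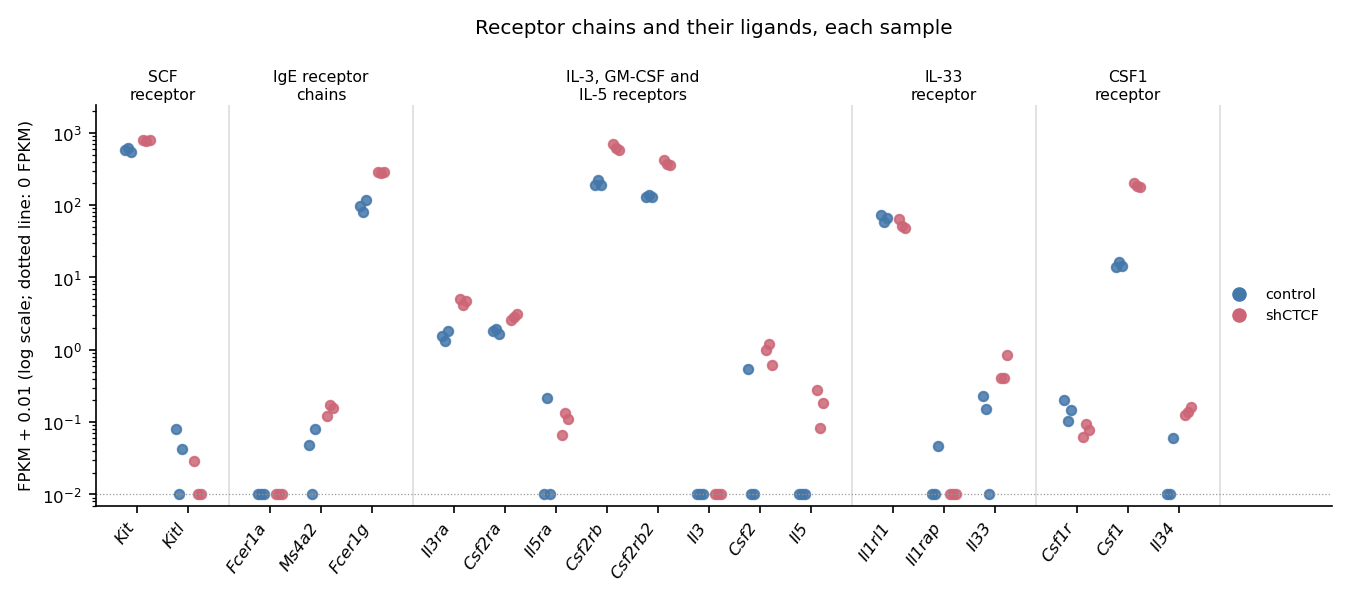
FPKM plus 0.01 (log scale) of receptor chains and ligand genes in each control (blue) and shCTCF (red) sample, grouped by receptor, with 0 FPKM on the dotted line. The beta chains and Fcer1g sat at 80.7 FPKM or more, their partner chains Il3ra, Csf2ra, Il5ra, Fcer1a and Ms4a2 at 5.07 FPKM or less, and of the ligand genes plotted only Csf1 exceeded 1.18 FPKM.

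Downstream of the beta chain, kinase, transcription factor and feedback genes moved apart. Jak2, the kinase bound to the beta chain, rose from 14.8 ± 1.31 to 52.6 ± 0.932 FPKM (log2 fold change 1.77, SE 0.08, adjusted p = 9.1e-07, limma). Stat5a, the factor it activates, fell from 62.1 ± 3.02 to 28.0 ± 1.53 FPKM (log2 fold change -1.12, SE 0.07, adjusted p = 5.0e-06, limma). Jak2 and Stat5a had too few counts to be tested with edgeR, at most 5 per sample, so both rest on FPKM only. The feedback inhibitors of cytokine signalling rose: Socs3 from 12.9 ± 1.80 to 172 ± 4.15 FPKM, Cish from 32.0 ± 2.25 to 145 ± 3.23 FPKM and Socs2 from 50.4 ± 9.40 to 189 ± 1.79 FPKM. Osm, a cytokine of the IL-6 family and a known STAT5 target, rose from 35.1 ± 4.09 to 145 ± 30.6 FPKM. These 4 passed both limma, at adjusted p between 7.9e-08 and 1.1e-05, and edgeR.

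All 17 genes of this list that could be tested on FPKM passed, 14 higher and 3 lower (Stat5a, Stat5b and Sh2b1), with a median log2 fold change of 0.81 beside -0.17 for all genes. Among those that rose, Bcl2l1 (36.6 to 112 FPKM in the means) and Mcl1 protect cells from apoptosis, and Pim1 and Pim2 are kinases induced by STAT5. The numbers were again 14 higher and 3 lower without control 2, the smallest library, and with equal medians. With equal medians 3482 of all 9976 genes tested rose and 3606 fell. On counts 11 of 14 genes of the list rose and 2 fell. Of all genes tested, 28.8% rose and 44.2% fell on FPKM without rescaling, and 34.8% and 34.3% on counts.

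Other cytokine receptors were also higher for the most part. Of 24 tested, 18 rose, 5 fell and 1 did not pass, where 28.8% of all genes tested rose and 44.2% fell. The median log2 fold change of the list was 1.19. On counts 13 of 18 rose and 4 fell, where 34.8% and 34.3% of all genes did. The largest changes were in Il7r, the IL-7 receptor, from 1.68 ± 0.0912 to 43.3 ± 4.76 FPKM, Il1rl2, the IL-36 receptor, from 0.270 ± 0.0134 to 15.5 ± 1.84 FPKM, Il1r1, the IL-1 receptor, from 5.07 ± 0.547 to 59.5 ± 4.29 FPKM, and Il18r1, the IL-18 receptor, from 5.59 ± 0.653 to 60.4 ± 2.62 FPKM. The last 3 belong to the IL-1 receptor family, as Il1rl1 does. Il7r and Il1rl2 had 0 counts in all samples and could be measured on FPKM only. Those that fell were Epor, Il9r, Il17ra, Il21r and Ifngr1.

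Il1rl1 (chromosome 1, plus strand, 40486415 to 40522259) overlapped between the groups in its total level, but the FPKM estimates of its transcripts did not. The total was 72.3, 59.1 and 65.7 FPKM in the controls and 65.3, 50.8 and 48.2 FPKM in shCTCF, so that shCTCF 1 lay within the range of the controls. The transcript with the long 3′ end, which encodes the membrane receptor ST2L, measured 33.1, 29.2 and 30.7 FPKM in the controls and 50.4, 40.0 and 38.7 FPKM in shCTCF. The transcript with the short 3′ end, which encodes the soluble decoy form, measured 39.2, 29.9 and 35.0 FPKM in the controls and 14.9, 10.8 and 9.55 FPKM in shCTCF. Neither overlapped between the groups, and they differed in opposite directions.

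As a share of the gene, the long form took 45.8%, 49.5% and 46.8% in the controls and 77.2%, 78.7% and 80.2% in shCTCF. The exons that only the long form has (9 to 11, the last of 3649 bases) gave nearly all counts of the gene, 1570 of 1575, 358 of 361 and 1531 of 1537 in the controls and 2090 of 2098, 1512 of 1519 and 1874 of 1879 in shCTCF. Scaled to library size, the counts of the gene were 228, 201 and 209 CPM in the controls and 385, 303 and 294 CPM in shCTCF, a ratio of 1.54 beside 1.39 for the FPKM of the long form. The annotation ties the short end of the expressed form to the distal first exon and the long end to the proximal first exon, both shown above, and has no transcript that joins the distal exon to the long end. First exon and 3′ end could therefore not be told apart from these values. Over the 61-base distal exon the counts were 5, 3 and 6 in the controls and 8, 7 and 5 in shCTCF. These few counts overlapped between the groups. Fragments that ran on into shared exons were not counted, so the counts cannot check the lower FPKM estimate of the short form. The difference of that form rests on the FPKM values alone. A second short form, with the proximal exon, was at 0 FPKM in all samples.

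The partner and ligand of ST2 were nearly absent. Il1rap, the chain that ST2 needs to signal, was at 0 in 5 samples and at 0.0369 FPKM in control 3. Il33 lay between 0 and 0.220 FPKM in the controls and between 0.392 and 0.837 FPKM in shCTCF. Further down the pathway, Irak1, a kinase recruited by the receptor, fell from 37.6 ± 3.02 to 16.4 ± 0.966 FPKM, Sigirr, an inhibitor of the receptor family, from 20.9 ± 0.577 to 7.25 ± 1.08 FPKM and Tab1, an adaptor of the kinase TAK1, from 7.77 ± 1.14 to 1.96 ± 0.614 FPKM. Irak1 had too few counts to be tested with edgeR. Il13, a cytokine that IL-33 induces, rose from 4.08 ± 0.134 to 68.8 ± 15.8 FPKM (log2 fold change 3.76, SE 0.15, adjusted p = 4.4e-07, limma). Of 13 genes tested of this list, 5 rose, 4 fell and 4 did not pass. With equal medians 8 rose and 3 fell, where 3482 of all 9976 genes tested rose and 3606 fell. Without that scaling, 28.8% of all genes tested rose and 44.2% fell.

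The other members with several transcripts were compared in the same way. In Csf2rb, the transcript that starts with the upstream first exon took 48.2%, 58.6% and 55.9% of the signal in the controls and 0% in all 3 shCTCF samples. The transcripts differ in 110 and 23 bases at the 5′ end, and the counts over those 110 bases were 6, 1 and 10 in the controls but also 2, 3 and 7 in shCTCF, so that the exon was still counted where the FPKM estimate of its transcript was 0. The summed Csf2rb level does not depend on this split. In Csf2rb2, the transcript that lacks exons 5 and 6 took 20.1%, 0% and 25.2% in the controls and 53.0%, 54.8% and 56.5% in shCTCF. The full-length form differed less than the gene, with a ratio of means of 1.54, and the 327 bases that only this form has gave 46.9, 63.6 and 52.2 CPM in the controls and 111, 77.5 and 77.1 CPM in shCTCF, a ratio of 1.63.

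Among the 3194 genes with 2 or more transcripts and at least 5 FPKM in every sample, 11.2% had a transcript whose share moved by 20 or more percentage points without overlap of the groups. The largest mean shift was 54.2 points for Csf2rb, a size that 1.06% of these genes reached, 39.6 for Csf2rb2 (2.79%), 31.3 for Il1rl1 (5.98%) and 2.4 for Kit (64.9%).

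**Figure D4:**
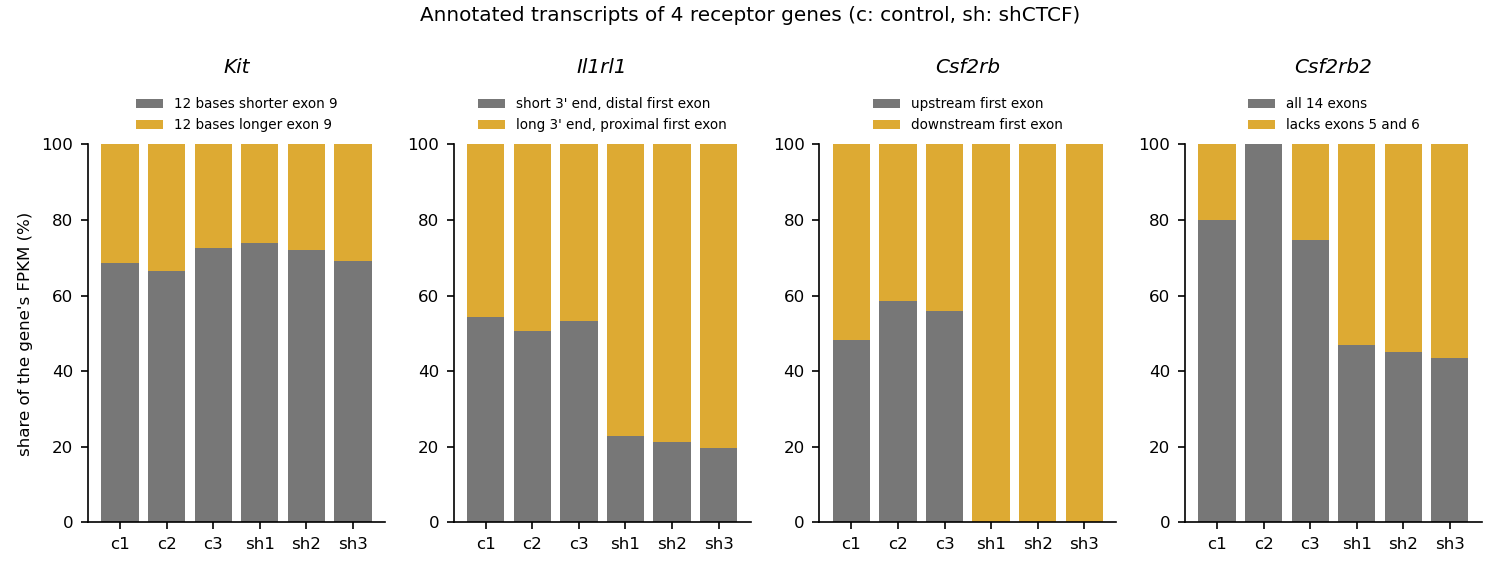
Share (%) of each annotated transcript in the FPKM of Kit, Il1rl1, Csf2rb and Csf2rb2, for control samples c1 to c3 and shCTCF samples sh1 to sh3, with the colours named above each panel. The long form of Il1rl1 took 45.8% to 49.5% in the controls and 77.2% to 80.2% in shCTCF, while the Kit forms overlapped.

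Csf1r, the receptor that defines macrophages and their precursors, was near 0. It measured 0.192, 0.0932 and 0.135 FPKM in the controls and 0.0522, 0.0856 and 0.0689 FPKM in shCTCF. The groups did not overlap on FPKM, but the counts behind them were 9, 1 and 6 and 3, 3 and 4, and in CPM the groups overlapped. Its ligand moved: Csf1 rose from 14.9 ± 1.31 to 187 ± 11.9 FPKM, 12.6 times (log2 fold change 3.57, SE 0.08, adjusted p = 4.6e-08, limma). Il34, the other ligand, stayed at or under 0.153 FPKM. Of the related receptor kinases, Pdgfra rose from 1.13 ± 0.530 to 4.16 ± 0.209 FPKM, Pdgfrb fell from 6.09 ± 0.799 to 2.16 ± 0.146 FPKM, and Flt3 was at 0 in 5 samples and at 0.0302 FPKM in shCTCF 2. In all, 4 of the 13 genes of this list could be tested on FPKM. Of these 2 rose and 1 fell, where 28.8% of all genes tested rose and 44.2% fell.

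Mrgpra9 (chromosome 7, minus strand) was the member with the largest ratio between the groups, and the lower values were in shCTCF. It measured 2.39, 3.43 and 3.47 FPKM in the controls and 0.0961, 0.105 and 0.0846 FPKM in shCTCF, means of 3.10 ± 0.616 and 0.0952 ± 0.0103 FPKM (SD, n = 3 each) and a ratio of 32.5 between control and shCTCF. Its counts were 52, 13 and 56 in the controls and 1 in each shCTCF sample. Summed over the groups and scaled to the library totals, the ratio was 47.4, a description without a test. Of the other 19 MRGPR genes 12 were at 0 FPKM in every sample. Mrgpra1 was also counted in the controls only, 9, 1 and 7 times against 0 in each shCTCF sample, too few to be tested. Mrgpre, the only listed gene of the family that passed the FPKM filter, rose from 4.38 ± 0.460 to 7.83 ± 0.170 FPKM (log2 fold change 0.72, adjusted p = 2.7e-04, limma), and Mrgprb2, the receptor of connective tissue mast cells, was at 0.

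Around Kit itself, adaptors and inhibitors moved in both directions. Spred1, an inhibitor of Ras signalling, rose from 13.4 ± 0.974 to 39.3 ± 0.454 FPKM and Socs1, a feedback inhibitor, from 44.3 ± 6.78 to 105 ± 14.8 FPKM. Fes, a cytoplasmic tyrosine kinase, fell from 32.8 ± 5.24 to 12.5 ± 1.55 FPKM, and Cbl, the ubiquitin ligase that removes activated receptors, from 16.6 ± 0.772 to 6.79 ± 0.471 FPKM. Of 37 genes tested of the Kit pathway, 8 rose, 12 fell and 17 did not pass, with a median log2 fold change of -0.09. With equal medians 11 rose and 10 fell, where 3482 of all 9976 genes tested rose and 3606 fell. On counts 9 of 29 genes of the list rose and 3 fell. Of all genes tested, 28.8% rose and 44.2% fell on FPKM without rescaling, and 34.8% and 34.3% on counts.

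Of the transcription factors of the mast cell and myeloid lineages, some of which drive Kit, 11 of 19 tested fell and 4 rose, where 44.2% and 28.8% of all genes tested did. Gata2 measured 501 ± 43.5 and 559.8 ± 11.6 FPKM and Mitf 17.3 ± 3.18 and 16.5 ± 1.02 FPKM, and neither passed. Myb fell from 95.1 ± 5.07 to 5.92 ± 0.406 FPKM, Nfe2 from 31.5 ± 1.93 to 1.88 ± 0.108 FPKM, Lyl1 from 74.5 ± 11.5 to 5.89 ± 0.946 FPKM and Zfpm1, a cofactor of GATA factors, from 38.5 ± 4.71 to 12.8 ± 0.989 FPKM. All 4 passed limma and edgeR. The median log2 fold change of the list was -0.46. With equal medians 6 rose and 9 fell, where 3482 of all 9976 genes tested rose and 3606 fell.

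**Figure D5:**
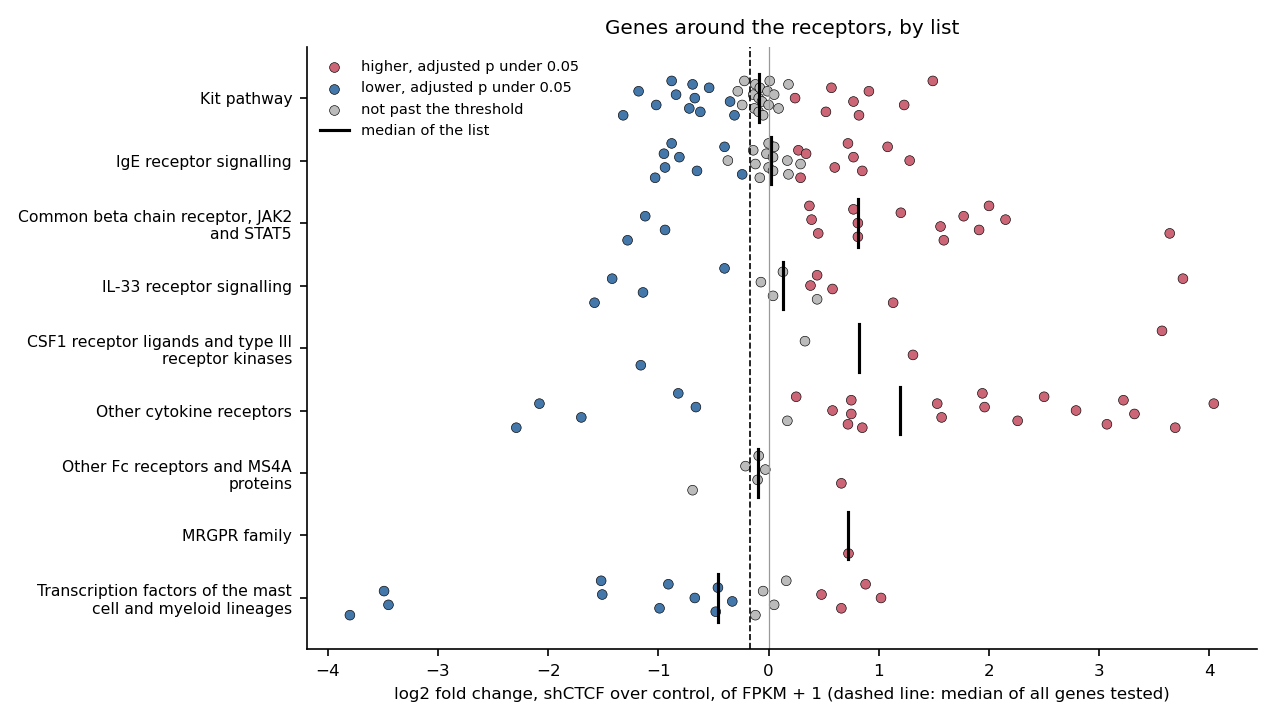
Log2 fold change (shCTCF over control, of FPKM + 1) of the genes of 9 lists that averaged 1 FPKM or more, coloured by the limma call, with the median of each list as a black bar and the median of all genes (-0.17) as a dashed line. The lists of the common beta chain and of other cytokine receptors have medians of 0.81 and 1.19, and that of the transcription factors -0.46.

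Over the 9 lists together, 241 genes were in the expression table and 151 were tested on FPKM, of which 62 rose, 44 fell and 45 did not pass (limma). On counts 51 of 112 rose and 22 fell (edgeR). Of 103 genes tested on both kinds of values, 59 passed on both, and these had the same direction. Among all genes tested, 28.8% rose and 44.2% fell on FPKM, and 34.8% and 34.3% on counts.

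In the controls the members ranked Kit, Csf2rb, Csf2rb2, Fcer1g, Il1rl1, Mrgpra9, Il3ra, Csf1r, Ms4a2 and Fcer1a from high to low, and the samples of neighbours overlapped only for Ms4a2 and Fcer1a. In shCTCF the first 5 kept this order without overlap, followed by Il3ra, Ms4a2, Mrgpra9, Csf1r and Fcer1a, with overlap between Mrgpra9 and Csf1r.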

How the data were processed

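Total RNA of 3 control and 3 shCTCF samples had been made into stranded mRNA libraries (KAPA) and sequenced by the authors. Reads were aligned by the authors to mm9 with HISAT2 (version given as 4.8.2 in the submitters' processing notes). FPKM values were calculated by the authors with Cufflinks 2.2.1 per RefSeq transcript and are normalized for length and depth. The deposited counts are whole fragments per RefSeq transcript from featureCounts 1.6.2, unstranded and not normalized, and fragments over more than 1 transcript were not counted, so genes with overlapping transcripts lose counts.

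Values were summed per symbol with a RefSeq gene table (GRCm38.p6, names only), which named 41685 of 41876 FPKM rows and 41186 of 41388 counted transcripts. At most 0.603% of a sample's counts had no symbol, and 0 value columns lacked a sample. Genes averaging 1 FPKM or more were tested with limma 3.58.1 on log2(FPKM + 1), a scale that understates changes of low genes (lmFit, eBayes with trend), and counts with edgeR 4.0.16 (TMM, filterByExpr, quasi-likelihood). Two-sided p-values were corrected across the whole of each table (Benjamini-Hochberg), and 0.05 was the threshold. Both scripts were tested on simulated data. Members were given no test. Permutation of 3 against 3 samples cannot go below p = 0.1. Counting floors cover counting error only. The members and lists were chosen with earlier results of these data known. Named genes were the members, their ligands, partner chains and first signalling proteins, the 4 largest limma changes without overlap per list, and the 5 genes nearest to Kit. Ighe, one of the named partners, was not analysed here. Alternatives were other scalings, pseudocounts, filters, tools (DESeq2 1.42.0), a replicate block, the highest transcript in place of the sum, and each sample left out.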

Additional observations from a re-analysis of the deposited data

How the results depend on the processing

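The number of members without overlap, 8 of 10 on FPKM (30.8% of all genes past the filter were above and 45.8% below without overlap), was 7 with the same median in each sample, 8 with the highest transcript alone, 6 of the 7 that could be scaled by quantile normalization, and 8 to 9 with 1 sample left out. On counts it was 5 of the 5 members past the filter throughout. The share of all genes without overlap was not computed on counts, where edgeR called 34.8% higher and 34.3% lower. The 5 members included Il1rl1, which overlapped on FPKM and had nearly all its counts on its long form. The listed genes called, 106 on FPKM and 73 on counts, lay between 93 and 119 and between 71 and 86 under every alternative run, and none of those called in both changed direction. The replicate numbers did not pair the samples, as same-numbered samples had correlations of deviations of -0.041, 0.018 and 0.039, and a fit with the replicate block called 105 and 74. Of all genes called on FPKM 39.5% were higher, and 49.1% with the same median in each sample.

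The log2 difference of Il1rl1 turned from -0.27 to 0.45 with its highest transcript alone, the long form. With the highest transcript, Csf2rb moved from 1.65 to 2.78 and Csf2rb2 from 1.52 to 0.63. The same median moved Kit from 0.45 to 0.64, and a pseudocount of 0.01 moved Il3ra from 1.15 to 1.59 and Mrgpra9 from -1.89 to -4.87. Genes that had not passed turned: Lat to 0.10 (same median) and 0.03 (without control replicate 2) on FPKM (-0.15 to 0.03 with 1 sample left out), and to -0.10 (library size only) on counts, Mitf to 0.12 (same median, and quantile) and 0.03 (without control replicate 1 or 3), and Gata2 to -0.00 (quantile) on FPKM and -0.03 (library size only) on counts. The cause was not tested. Gata2 passed the threshold with the same median (0.35) and without control replicate 2 (0.23, and 0.29 on counts), and Mitf (-0.20) without control replicate 2. Lyn no longer passed with the highest transcript alone (-0.36). On counts, Csf2ra (0.49, without shCTCF replicate 1) and Socs1 (0.77, without control replicate 1) no longer passed, while Lat (0.15, without control replicate 2) and Syk (1.35, without shCTCF replicate 3) did. On counts 5 members had too few to be compared. For Kit, Ms4a2 and Csf2rb, at most 4.0% of the bases of a transcript were its own and fragments on shared bases were not counted.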

Other observations

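Of the listed genes, 9 were under the FPKM filter but passed that on counts. The 5 given here were chosen after their values were seen, and some passed the filter through the shCTCF samples alone, so their counts are a description without a test. Lepr, the leptin receptor of the cytokine receptor family, was counted 2, 0 and 0 times in the controls against 11, 13 and 23 times in shCTCF. Il2rb, the beta chain of the IL-2 receptor, was counted 6, 1 and 2 times against 26, 17 and 21 times. Ms4a6d, a relative of Ms4a2 known from macrophages, had 0 counts in all controls and 17, 15 and 18 in shCTCF. Grb7, an adaptor of receptor kinases, was counted 2, 2 and 0 times against 40, 21 and 43 times. Pilra, an inhibitory receptor, was listed at 0 FPKM in all samples but was counted 0, 0 and 2 times against 11, 11 and 21 times.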
